A study of Homo sapiens with 5 samples.

Results

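The cells described here held RNA of the Notch effector HES5. They were cells of SW480, a line grown from a human colorectal tumor, at 1 day post injection (1 dpi) into zebrafish larvae. They were selected by their count of HES5 UMIs (unique molecular identifiers, each of which marks 1 captured RNA molecule). Of 531 cells of 1 dpi, 97 had 2 or more HES5 UMIs (HES5-detected cells), 53 had 1 UMI and were placed in neither group, and 381 had none (HES5-zero cells). The whole series held 822 cells in 5 libraries, each 1 sorted 384-well plate, of which libraries 6, 7 and 8 were of 1 dpi and libraries 10 and 11 of 4 dpi.

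All groups shared the same cells and host. The line carried GFP from a lentiviral vector, about 100 xenografted tumors were pooled, and viable GFP-positive cells were sorted singly at 1 dpi. No cells grown in culture and no cells with Notch blocked are analysed here, so that the comparison was made between cells of the same plate. Whether the 3 plates came from separate pools of tumors is not stated. The p-values below rest on how the within-plate difference varied between the plates, and this variation may be technical.

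Notch is a receptor through which touching cells signal to each other. A ligand of the DLL or JAG family on one cell leads to cleavage of the receptor on its neighbor, and the freed intracellular part joins the DNA-binding protein RBPJ and coactivators to switch on genes of the HES and HEY families, which code for transcriptional repressors. In the intestine, Notch signaling keeps progenitor cells from becoming secretory cells, and HES5 is one of its classical targets.

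The DNA motif that RBPJ prefers is TGGGAA, and its longer form is GTGGGAA. The promoters of HES5 and of 5 other Notch targets are shown because they bear on a comparison made below, in which most of these genes differed between the groups while HES4 did not. Each line gives the 250 bases before the annotated start of the gene (RefSeq, GRCh38.p14), 5′ to 3′ on the strand of the gene, and capitals mark TGGGAA or its reverse complement.
HES5 (chr1:2530264-2530513, minus strand): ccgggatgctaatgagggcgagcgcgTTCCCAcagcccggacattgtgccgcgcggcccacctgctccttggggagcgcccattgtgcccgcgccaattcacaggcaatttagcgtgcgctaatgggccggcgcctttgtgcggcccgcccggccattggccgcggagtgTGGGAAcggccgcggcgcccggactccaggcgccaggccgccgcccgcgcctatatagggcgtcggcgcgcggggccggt
HES1 (chr3:194135898-194136147, plus strand): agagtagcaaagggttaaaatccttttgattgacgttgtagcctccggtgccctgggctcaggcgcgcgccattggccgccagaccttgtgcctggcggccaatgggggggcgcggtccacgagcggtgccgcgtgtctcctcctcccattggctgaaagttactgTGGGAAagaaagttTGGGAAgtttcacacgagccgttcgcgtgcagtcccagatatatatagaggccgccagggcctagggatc
HEYL (chr1:39639644-39639893, minus strand): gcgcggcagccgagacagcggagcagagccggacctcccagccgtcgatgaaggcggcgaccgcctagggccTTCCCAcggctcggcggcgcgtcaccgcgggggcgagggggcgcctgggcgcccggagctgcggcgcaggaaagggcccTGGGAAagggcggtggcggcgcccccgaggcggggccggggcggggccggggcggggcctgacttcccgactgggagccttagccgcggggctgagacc
HEY2 (chr6:125749382-125749631, plus strand): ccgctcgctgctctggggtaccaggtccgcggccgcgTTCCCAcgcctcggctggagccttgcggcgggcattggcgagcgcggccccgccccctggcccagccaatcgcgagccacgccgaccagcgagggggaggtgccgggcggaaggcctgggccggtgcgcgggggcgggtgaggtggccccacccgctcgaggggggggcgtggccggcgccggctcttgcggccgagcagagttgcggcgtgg
HES4 (chr1:1000098-1000347, minus strand): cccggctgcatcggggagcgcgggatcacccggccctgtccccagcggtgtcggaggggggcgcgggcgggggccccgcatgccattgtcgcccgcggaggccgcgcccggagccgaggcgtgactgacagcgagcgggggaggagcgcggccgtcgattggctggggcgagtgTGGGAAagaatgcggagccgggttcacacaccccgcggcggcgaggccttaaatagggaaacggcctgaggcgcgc
NRARP (chr9:137302272-137302521, minus strand): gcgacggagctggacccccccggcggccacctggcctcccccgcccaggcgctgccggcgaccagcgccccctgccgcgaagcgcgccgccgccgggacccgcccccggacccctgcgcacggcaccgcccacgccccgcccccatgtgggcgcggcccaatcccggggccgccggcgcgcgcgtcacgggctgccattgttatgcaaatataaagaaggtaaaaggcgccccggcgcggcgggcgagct

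HES5, HES1 and HEYL each held 2 matches, HEY2 and HES4 each held 1, and NRARP held 0. In HES1 the matches began 84 and 70 bases before the start, both on the strand of the gene. In HES5 they began 224 and 80 bases before it and in HEYL 178 and 99 bases before it, in each case with the farther match on the opposite strand. Of 35116 promoters of the same length, 20.8% held at least 1 match, 2.90% held at least 2, and 5.43% held the longer form, which contains the shorter one. Both matches of HES5 and 1 each in HES1, HEYL, HEY2 and HES4 were of the longer form. The 250 bases before ID1, ID3, CDKN1A and HES7 held no match. A match is a description of these letters and not evidence of binding.

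HES5-detected cells made up a like share of each plate. They were 41 of 227 cells of library 6 (18.1%, exact 95% interval 13.3 to 23.7%), 28 of 142 cells of library 7 (19.7%, 13.5 to 27.2%) and 28 of 162 cells of library 8 (17.3%, 11.8 to 24%). Within the group HES5 was uneven. The median HES5-detected cell had 11, 8 and 7 HES5 UMIs in libraries 6, 7 and 8, and the highest had 240, 125 and 76. The 10 cells highest in HES5 held 47.7% of the 1855 HES5 UMIs of all 1 dpi cells, and 41 cells had more than 10 UMIs.

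A cell with more UMIs has more chances to show HES5, so the rule can depend on depth. The median HES5-detected cell had 45352, 44942 and 41235.5 UMIs in libraries 6, 7 and 8, against 28605, 34785 and 21046 in HES5-zero cells, and 7523, 7339 and 6887 genes against 5562, 6212.5 and 4772. When the cells of each library were ranked by depth into 4 equal parts, 9.70% of the shallowest and 34.3% of the deepest were HES5-detected. Human UMIs per UMI of the ERCC spike-in RNAs had medians of 134, 135 and 61.2 in HES5-detected cells. In HES5-zero cells these were 93.6, 123 and 46.7. Whether the gap in depth came from detection or from the RNA content of the cells was not tested. At the median depth of a HES5-zero cell, the limit of 3 UMIs that a count of 0 allows is 105, 86.2 and 143 CPM of HES5 (UMIs of a gene among 1000000 UMIs), below the 262, 239 and 180 CPM of the median HES5-detected cell. Shallower HES5-zero cells, down to 4285, 4582 and 4741 UMIs, have higher limits, and the shallowest could hold HES5 at that level unseen. These limits cover counting error only. In the 1 dpi wells that failed the filters, 26 of 459439 UMIs were of HES5, or 56.6 CPM. Results below were therefore also computed with each HES5-detected cell paired to a HES5-zero cell of the same library and of like depth (matched in depth).

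**Figure D1:**
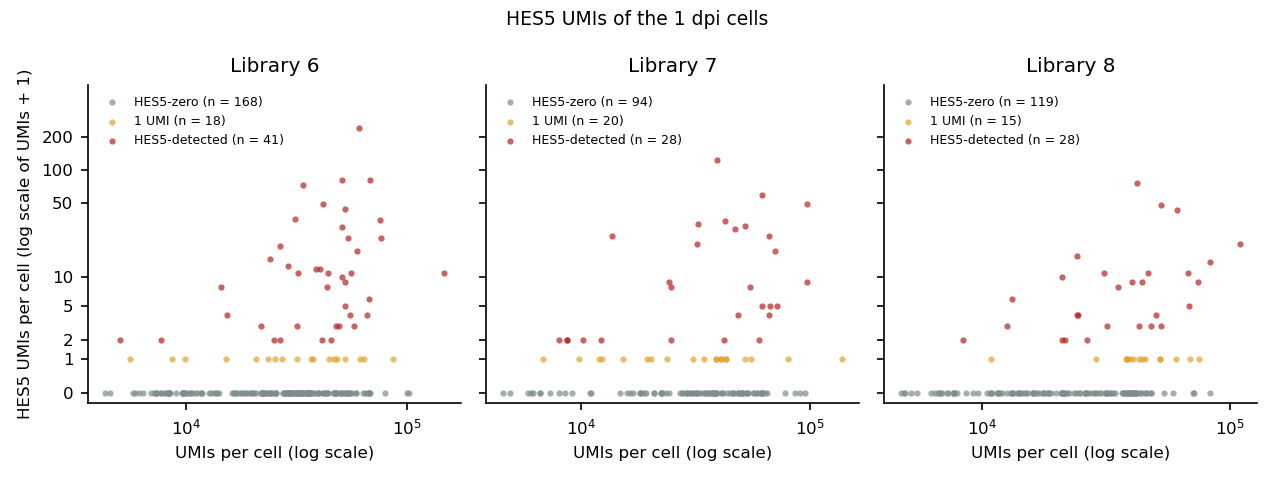
HES5 UMIs against total UMIs of each 1 dpi cell (both axes logarithmic, 1 added to the HES5 count so that 0 can be drawn), in 1 panel per library. Gray, orange and red points are cells with 0, 1 and 2 or more HES5 UMIs. HES5-detected cells reached 240, 125 and 76 UMIs in libraries 6, 7 and 8 and lay to the right of the HES5-zero cells in the median of each panel.

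Both groups expressed epithelial genes. EPCAM, KRT8, KRT18 and KRT19 were abundant in both. In the test described below, EPCAM, KRT19 and KRT8 were called lower in HES5-detected cells (log2 ratios -0.64, -0.72 and -0.28), and KRT18 was not called. Of 16 marker genes of blood, vessel, stroma, liver and glia, 4 (MPO, CD3E, CDH5 and GFAP) had no UMI in either group. The 16 genes together took 89 UMIs in HES5-detected and 243 in HES5-zero cells, which was 0.00139 to 0.00264% of the UMIs of HES5-detected and 0.00176 to 0.00285% of those of HES5-zero cells by library. The intestinal factor CDX1 had 0 and 1 UMI in HES5-detected and HES5-zero cells, CDX2 138 and 237, and VIL1 158 and 288. No doublet caller was run, since 1 cell was sorted per well.

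The question was which other genes differed between cells with and without HES5 RNA. UMIs were summed per library and group, giving 6 sums, and compared within library (edgeR quasi-likelihood test with Benjamini-Hochberg adjustment, called at an adjusted p under 0.05). Levels are given as CPM of the sums after TMM normalization, and differences as log2 ratios of HES5-detected over HES5-zero cells. The standard error (SE) of a ratio was derived from the test, as the absolute ratio divided by the square root of its F statistic. The difference was broad. Of 10978 genes tested without HES5, 2441 (22.2%) were higher and 2275 (20.7%) were lower in HES5-detected cells, with a median log2 ratio of -0.0049 over all genes tested. The 3 sums of HES5-detected cells lay above all 3 sums of HES5-zero cells in 25.4% of genes and below them in 24.9%. Each list of genes below has to be read against these shares. The filter on low counts kept a gene that had enough UMIs in 1 group alone, also in the matched comparisons. Of the scarce genes named below, HEY1, DTX1, ID3, CX3CL1 and ELAVL3 passed it only with their HES5-detected sums. CCNE2 and CDCA3 passed it only with their HES5-zero sums. With so few UMIs in the other group, a call in the other direction was hardly open to these genes.

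HES1, the main HES repressor of the intestinal epithelium, was high in HES5-detected cells of every library. Its level was 1745, 2583 and 1463 CPM in HES5-detected cells of libraries 6, 7 and 8 and 211, 606 and 304 CPM in HES5-zero cells. The groups did not overlap, and library 7 was highest in both. The log2 ratio was 2.46 (SE 0.13, adjusted p = 7.05e-10). HES1 was also uneven from cell to cell. The median HES5-detected cell had 1118, 2964 and 1485 CPM of HES1 among its own UMIs and the median HES5-zero cell 31.4, 89.5 and 25.1, but the highest HES5-zero cells reached 5859, 8860 and 6772. Of 381 HES5-zero cells, 24 (6.30%) lay above the median HES5-detected cell of their library.

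HEYL, another HES-related repressor, was scarce and showed the same direction. It stood at 54.8, 45.7 and 62.8 CPM in HES5-detected cells and at 11.1, 9.42 and 5.09 CPM in HES5-zero cells. The lowest HES5-detected library was above the highest HES5-zero library (log2 ratio 2.62, SE 0.24, adjusted p = 2.89e-07). A HEYL UMI was found in 73.2, 67.9 and 78.6% of HES5-detected cells and in 17.3, 18.1 and 10.9% of HES5-zero cells, at the unequal depths given above.

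Of the 20 genes of a list of Notch targets, 15 had enough UMIs to be tested. Of these, 12 were called higher and 0 lower, with a median log2 ratio of 1.94. The 12 include HEY1, DTX1 and ID3, which passed the filter only with their HES5-detected sums. HEY1 and HEY2, repressors of the HEY family, rose by 2.52 (SE 0.36) and 2.15 (SE 0.27). HEY2 was at 33.2, 15 and 24.9 CPM in HES5-detected cells and at 5.76, 5.02 and 5.82 CPM in HES5-zero cells. NRARP, which dampens Notch signaling by acting on the intracellular receptor, was at 186, 178 and 191 CPM against 39.9, 39.6 and 31.3 CPM, and its log2 ratio was 2.31 (SE 0.12). Its values differed little between plates, and it held no TGGGAA in the bases shown above. DTX1, a ubiquitin ligase of the Notch pathway, was low in both groups at 14.3 ± 5.05 and 2.13 ± 1.37 CPM (mean ± SD, n = 3 libraries each) and had a ratio of 2.63 (SE 0.42).

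ID1 and ID3, inhibitors of basic helix-loop-helix factors that BMP signaling also induces, were higher too. ID1 was the more abundant, with 827, 856 and 538 CPM against 142, 118 and 112 CPM (log2 ratio 2.56, SE 0.10), and ID3 rose from 4.79 ± 1.67 to 17.6 ± 3.86 CPM. SOX9, a transcription factor of crypt progenitor and Paneth cells, stood at 330, 340 and 321 CPM against 150, 132 and 139 CPM, a log2 ratio of 1.24 (SE 0.09). The cell cycle genes among the targets moved less. CCND1, which codes for cyclin D1, had a ratio of 0.50, and MYC, a driver of growth, 0.51. MYC was at 334 CPM in HES5-detected and 331 CPM in HES5-zero cells of library 6, so that its rise came from libraries 7 and 8, and without library 8 its ratio was 0.31. CDKN1A, the cell cycle inhibitor p21, had a ratio of 0.99, which was 0.56 without library 7. It was at 47.8, 92.1 and 36.2 CPM against 23.7, 27.6 and 36 CPM, so that library 8 showed next to no rise.

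HES4, HES7 and TGM2 did not pass the test. HES4 was at 33.2, 48.8 and 58.7 CPM in HES5-detected and at 34.2, 40.8 and 54.2 CPM in HES5-zero cells (log2 ratio 0.11, SE 0.15, adjusted p = 0.595). With every cell thinned to 10000 UMIs and grouped anew it was called lower (-1.25, adjusted p = 0.0345). HES7 was at 10.3 ± 6.53 against 4.73 ± 1.02 CPM (adjusted p = 0.0556). It was called without library 7 (log2 ratio 1.36), and the ratio was 0.35 without library 8. TGM2, a transglutaminase, was at 14.7 ± 8.4 against 12.6 ± 3.32 CPM (adjusted p = 0.739).

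**Figure D2:**
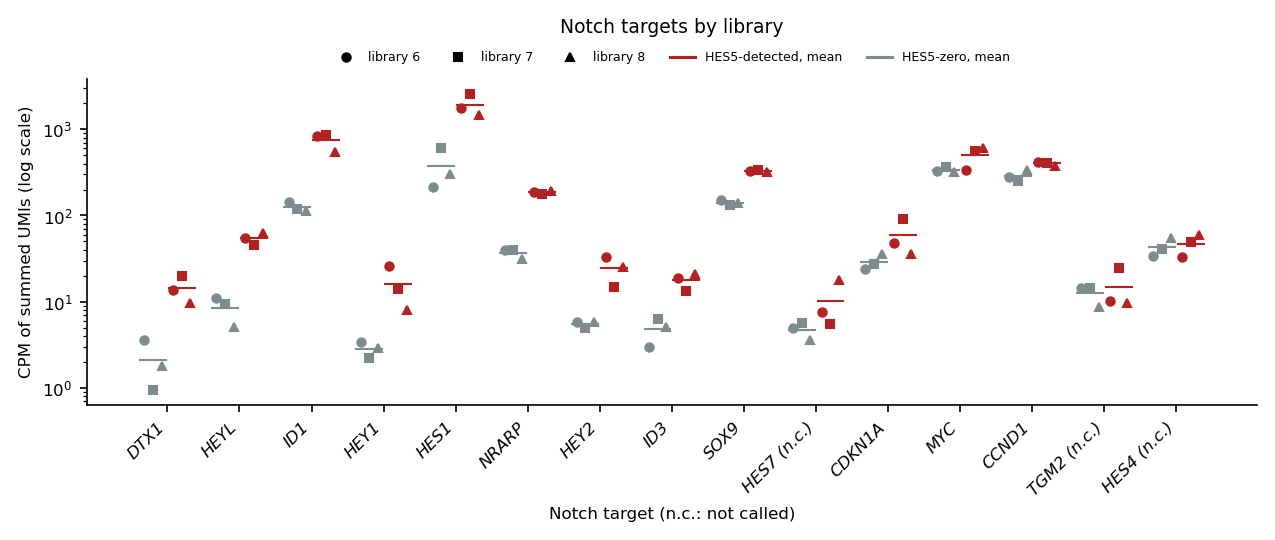
CPM of the 15 tested Notch targets (logarithmic axis) in HES5-detected (red) and HES5-zero cells (gray), with 1 symbol per library and a line at the mean of the 3 libraries. HES4, HES7 and TGM2 are marked n.c. (not called), and the red and gray symbols of HES1, HEYL, NRARP, ID1 and SOX9 do not overlap.

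Of the genes that send and receive the signal, DLL3 passed the test and the other ligands and receptors tested did not. Of the ligands, JAG2 had 80.01, 80.3 and 74 CPM in HES5-detected and 73.4, 72.2 and 74.2 CPM in HES5-zero cells (adjusted p = 0.55), and JAG1 18.6 ± 5.46 against 23.5 ± 4.18 CPM (adjusted p = 0.208). DLL3, a ligand-like protein known to act against Notch in the same cell, was lower, at 7.55, 10.2 and 4.83 CPM against 16, 14.1 and 22.9 CPM (log2 ratio -1.19, SE 0.31, adjusted p = 0.00527). Its call was lost without library 8 (log2 ratio -0.81, adjusted p = 0.062). DLL1 and DLL4 were too scarce to be tested, with 14 and 7 UMIs and with 23 and 23 UMIs in HES5-detected and HES5-zero cells. Of the receptors, NOTCH1 was at 55.9, 38.6 and 38.6 CPM against 35.4, 38 and 35.3 CPM (log2 ratio 0.31, SE 0.17, adjusted p = 0.145) and NOTCH2 at 16.2 ± 8.32 against 13.5 ± 1.75 CPM (adjusted p = 0.791), while NOTCH3 and NOTCH4 were not tested.

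Among the proteins that trim and glycosylate the receptor, 16 were tested, 4 higher and 4 lower. These counts are near the shares of 22.2 and 20.7% over all genes. LFNG, the Fringe glycosyltransferase that changes which ligand a receptor answers to, was at 34.2, 28.3 and 53.1 CPM against 22.4, 26.1 and 25.5 CPM (log2 ratio 0.62), and FURIN, the protease that makes the first receptor cut, had a ratio of 0.51. MIB2, a ligase that acts on ligands, and PSEN2, a catalytic subunit of gamma-secretase, were lower (-0.67 and -0.65). None of these 4 calls held without each library in turn. They were lost without library 6 (LFNG 0.61, FURIN 0.45) or without library 8 (LFNG 0.39, FURIN 0.47, MIB2 -0.43, PSEN2 -0.46), and FURIN also without library 7 (0.58).

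Of 8 tested members of the transcription complex, 3 were higher and 0 lower. The acetyltransferases EP300 and CREBBP, which many pathways share, stood at 300.4 ± 32.2 and 112 ± 6.63 CPM in HES5-detected cells, with log2 ratios of 1.08 (SE 0.09) and 0.88 (SE 0.12). SNW1, a splicing factor that also binds the complex, had a ratio of 0.34, which was 0.28 without library 6 and 0.29 without library 8, neither of them called. RBPJ itself had a ratio of 0.10 and was not called. Of 17 inhibitors and corepressors, 8 were higher and 3 lower. DTX4, a Deltex ligase, and FBXW7, which marks the cleaved receptor for degradation, had ratios of 1.18 and 0.87, and the corepressors CTBP1 and CTBP2 both had -0.54. Without library 6, DTX4 (0.85) and CTBP2 (-0.41) were not called.

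Immediate early genes, which cells switch on within minutes of a stimulus without new protein synthesis, were higher in HES5-detected cells as a group. Of 37 tested, 31 were higher and 0 lower, with a median log2 ratio of 1.14. NR4A1, an orphan nuclear receptor of this class, stood at 216, 482 and 284 CPM in HES5-detected cells and at 30.5, 69.7 and 50.2 CPM in HES5-zero cells (log2 ratio 2.71, SE 0.11). EGR4 was at 166, 198 and 198 CPM against 31.6, 66.9 and 25.5 CPM (2.24). At the lower end of the called members were JUND (0.63) and IER5 (0.52), and IER5 was not called without library 6 (0.41) or library 7 (0.31) and had 0.80 without library 8. The list took 1.22, 1.64 and 1.34% of the UMIs of HES5-detected cells and 0.403, 0.634 and 0.443% of those of HES5-zero cells. By cell, 92 of 97 HES5-detected cells (94.8%) and 146 of 381 HES5-zero cells (38.3%) lay above the median share of their library.

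NF-kB pathway genes showed the same direction, with 13 of 18 higher, 0 lower and a median of 0.87. BCL3, a nuclear cofactor of NF-kB, was at 160, 177 and 141 CPM against 33.3, 27.3 and 21.1 CPM (log2 ratio 2.53, SE 0.13). TNFAIP3, which codes for the feedback inhibitor A20, was at 165, 220 and 186 CPM against 54.7, 42.1 and 36 CPM (2.07, SE 0.14). BIRC2 and NFKBIB, with the smallest ratios among the called members (0.33 and 0.34), were not called without library 7 (0.23 and 0.31) or library 8 (0.32 and 0.29).

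Chemokines were mostly too scarce, and of 7 tested 3 were higher and 0 lower. CCL20 rested on 1 plate, with 51.8, 320 and 51.5 CPM in HES5-detected cells against 28.8, 10.4 and 44.7 CPM, and its ratio of 1.97 was 0.54 without library 7. CXCL3 behaved alike, with 68.5 CPM in library 7 and 24.7 and 24.1 CPM in libraries 6 and 8, and without library 7 its ratio of 0.62 became 0.13 and was not called. CXCL1 was at 15.1, 103 and 8.85 CPM against 17.9, 25.4 and 22.6 CPM and was not called (0.59, adjusted p = 0.225). Its ratio was -0.67 without library 7 and was called without library 8 (1.10). CX3CL1, a membrane-bound chemokine, was low at 24.7, 13.4 and 4.02 CPM against 3.42, 1.88 and 3.64 CPM (2.26, SE 0.42, adjusted p = 0.000419), and it was not tested without library 6.

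Wnt and stem cell genes went both ways. Of 23 tested, 11 were higher and 6 lower, with a median of 0.24. EPHB3, an ephrin receptor of the crypt base, rose from 27.1, 29.8 and 24.4 CPM to 151, 154 and 164 CPM (log2 ratio 2.52, SE 0.13). TNFRSF19, a receptor that Wnt induces, was at 25.5 ± 1.15 against 6.54 ± 1.59 CPM (1.95). AXIN2, the feedback inhibitor most often used as a readout of Wnt, was at 269, 325 and 294 CPM against 166, 143 and 135 CPM (0.99, SE 0.10). NOTUM, which inactivates Wnt ligands, had a ratio of 0.32 and was not called without library 6 (0.21) or library 7 (0.26).

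Other members of the list were lower. CD44 was at 12.3 ± 1.58 against 27.3 ± 3.41 CPM (-1.16), and PROX1, a homeobox factor, at 52.3, 68.5 and 49.9 CPM against 131, 100.1 and 106 CPM (-1.0). ASCL2, a stem cell factor, was at 45.8, 46.5 and 46.7 CPM against 88.8, 58.7 and 105 CPM (-0.85). APCDD1, a Wnt inhibitor, had -0.58, and its groups overlapped; without library 8 it was not called (-0.27). LGR5 was tested at 0.11 and not called, and TERT had 6 and 21 UMIs in HES5-detected and HES5-zero cells and was not tested.

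Few genes of the mature cell types of the intestine could be tested. Of the absorptive list 6 of 25 were, 2 of them higher. ELF3, an epithelial factor, was at 334, 707 and 418 CPM against 108, 140 and 136 CPM (log2 ratio 1.87, SE 0.12), and KLF5 had 0.24, which was not called without library 7 (0.18) or library 8 (0.17) and was 0.37 without library 6. Of the proneural and secretory list 12 of 31 were tested. ELAVL3 was higher (1.54) at 13.5 ± 6.17 against 4.58 ± 1.08 CPM, and SOX4 was lower (-0.69). TFF3, a trefoil peptide of goblet cells, was at 94.6, 73.2 and 77.2 CPM against 69.2, 85.4 and 128 CPM (adjusted p = 0.557). Without library 6 it was called lower (-0.49), and without library 8 its ratio was 0.15. ATOH1, the factor that HES repressors hold back, had 0 UMIs in both groups.

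The largest falls included several proteins of the cell membrane. AHNAK, a very large scaffold protein at the cell membrane, was at 50.3, 65.4 and 58.7 CPM in HES5-detected and at 241, 208 and 272 CPM in HES5-zero cells (log2 ratio -2.06, SE 0.12), and its relative AHNAK2 at 6.79 ± 3.67 against 35 ± 12.3 CPM (-2.38). PRKCDBP, which codes for a cavin of caveolae, was at 47.3, 70.1 and 61.2 CPM against 229, 214 and 278 CPM (-2.03). AKAP12, an anchor of protein kinase A, was at 3.02, 26.8 and 18.5 CPM against 74.3, 90.7 and 64 CPM (-2.42), and EMP1, a membrane protein, at 16.1, 74.8 and 66 CPM against 214, 140 and 183 CPM (-1.90). In both, library 6 showed the widest gap, and without it the ratio of EMP1 was -1.19. L1CAM, an adhesion molecule, was at 26.2, 30.7 and 28.2 CPM against 107, 98.9 and 105 CPM (-1.88).

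SRM, which makes spermidine and is driven by MYC, was at 114, 84.2 and 80.5 CPM against 339, 332 and 290 CPM (-1.78). KIAA0101, a partner of the replication clamp PCNA, had a ratio of -1.97, AK4, a mitochondrial adenylate kinase, -1.83, and C19orf33 -1.80. Besides the genes named, the 10 highest ratios held PER1, a clock gene, at 140, 183 and 163 CPM against 20.7, 35.5 and 26.2 CPM (2.58, SE 0.13), and RIPK4, a kinase of epithelial differentiation, at 310.1 ± 40.5 against 61.3 ± 9.46 CPM (2.34).

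Epithelial and mesenchymal genes had 4 of 27 higher and 12 lower. VIM, the intermediate filament of mesenchymal cells, was at 1.01, 15 and 1.61 CPM against 27.1, 24.8 and 31.7 CPM (-2.42, SE 0.45), and -4.50 without library 7. SNAI1 and SNAI2, repressors of epithelial genes, went the other way, with ratios of 1.09 and 1.18. Genes of hypoxia and glycolysis had 5 of 30 higher and 15 lower. PFKP and NDRG1 had the lowest called ratios (-1.48 and -1.37) and SLC2A3 and P4HA1 the highest (1.09 and 0.88). NDRG1 was -2.28 without library 7, -0.90 without library 8, and not called without library 6 (-1.06).

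Genes of DNA replication were mostly lower. Of 39 S phase genes 22 were lower and 4 higher, with a median of -0.47. MCM6, a subunit of the replicative helicase, was at 51.3, 36.2 and 53.9 CPM against 113, 115 and 109 CPM (-1.25, SE 0.14), and CCNE2 had -1.63. POLA1 and POLD3, subunits of DNA polymerases, were among the 4 that were higher (0.63 and 0.52), POLD3 not without library 6 (0.46) or library 8 (0.49). The summed S phase list took 0.227, 0.170 and 0.199% of the UMIs of HES5-detected cells and 0.248, 0.238 and 0.195% of those of HES5-zero cells, so that the sums overlapped. Of 51 genes of G2 and mitosis 17 were higher and 8 lower (median 0.29). HMMR and HJURP had the highest called ratios (1.09 each) and CDCA3 and BIRC5 the lowest (-1.40 and -0.74). Without library 6, HMMR (0.64), HJURP (1.24), CDCA3 (-0.97) and BIRC5 (-0.77) were not called, nor was BIRC5 without library 7 (-0.51), and HJURP was 0.69 without library 8.

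Housekeeping genes of protein synthesis and respiration were lower almost throughout. Of 80 cytosolic ribosomal proteins 74 were lower and 1 higher, with a median of -0.67. RPL14 was at 1381, 1272 and 1192 CPM against 2458, 2136 and 2229 CPM (-0.83, SE 0.07), and RPL39 had -0.82. RPL22L1, a paralog of RPL22, was the member that rose (0.55), and RPS9 had the smallest called fall (-0.24), not called without library 7 (-0.23) or library 8 (-0.20). Together the list took 10.2, 10.3 and 10.2% of the UMIs of HES5-detected cells and 14, 14.4 and 15.4% of those of HES5-zero cells. Of 75 nuclear genes of oxidative phosphorylation, 59 were lower and 1 higher (median -0.52), with NDUFB2 at -1.07 and NDUFS8 at -0.89. All 15 mitochondrially encoded genes tested were lower (median -0.44), among them MT-ND1 at 9336, 11415 and 9064 CPM against 16397, 15279 and 13867 CPM. The mitochondrial share of a cell, which also served to filter wells, had medians of 8.62, 10.2 and 9.42% in HES5-detected and 13.7, 11.6 and 11.3% in HES5-zero cells.

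Other lists are given by their counts, beside the 22.2 and 20.7% of all genes. Genes of the TGF-beta and BMP response had 7 of 16 higher and 1 lower, YAP and TEAD targets 7 of 16 and 3, p53 targets 7 of 18 and 3, G1 cyclins and inhibitors 5 of 17 and 4, and heat shock genes 4 of 19 and 5. Interferon-stimulated genes had 2 of 31 higher and 7 lower, nuclear RNAs 0 of 11 and 6, and the 9 tested epithelial genes 0 and 4.

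The levels were also read against the number of HES5 UMIs in a cell, as a description with no test. Cells just outside the rule, with 1 UMI, had 627 CPM of HES1 over the 3 libraries (here without TMM normalization), and the 18 cells just inside it, with 2 UMIs, had 2430. HES5-zero cells had 333, and cells with 3 to 5, 6 to 10 and more than 10 UMIs had 1628, 1887 and 2128. The libraries differed above 2 UMIs. In library 6 HES1 went from 2965 CPM at 2 UMIs to 638, 1493 and 2224 in the higher bins, in library 7 from 1668 to 3096, 2532 and 2698, and in library 8 from 3110 to 1428, 1712 and 1313. In each library every bin of 2 or more UMIs was above the bins of 0 and 1 UMI. Over the 3 libraries together, HEYL went from 8.51 and 15.9 CPM in cells with 0 and 1 UMI to 39.7, 33.7, 47.1 and 74.8 in the higher bins, NRARP from 35.4 and 52.4 to 141, 118, 140 and 258, and ID1 from 120 and 185 to 431, 394, 788 and 1057. HEY2 had no UMI in the 18 cells with 2 HES5 UMIs and 20.6, 28.9 and 34.7 CPM in the next bins. AHNAK was below its level at 0 UMIs in every bin of 2 or more UMIs of each library. Over the 3 libraries it was at 225 CPM with 0 UMIs, 179 with 1, and 102, 66.5, 41.1 and 54.1 in the higher bins.

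The bins with few UMIs also differed in other ways. The 18 cells with exactly 2 HES5 UMIs had a median of 21269.5 UMIs, less than the 28025 of HES5-zero cells, and immediate early genes took 1.74% of their UMIs over the 3 libraries (2.14, 1.52 and 1.45% in libraries 6, 7 and 8). In cells with 0 and 1 HES5 UMI this share was 0.482 and 0.664%, and in the 3 higher bins it lay between 1.08 and 1.45% over the 3 libraries. In library 7 the bins of 3 to 5 and more than 10 UMIs, with 1.65 and 1.80%, were above the bin of 2 UMIs.

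**Figure D3:**
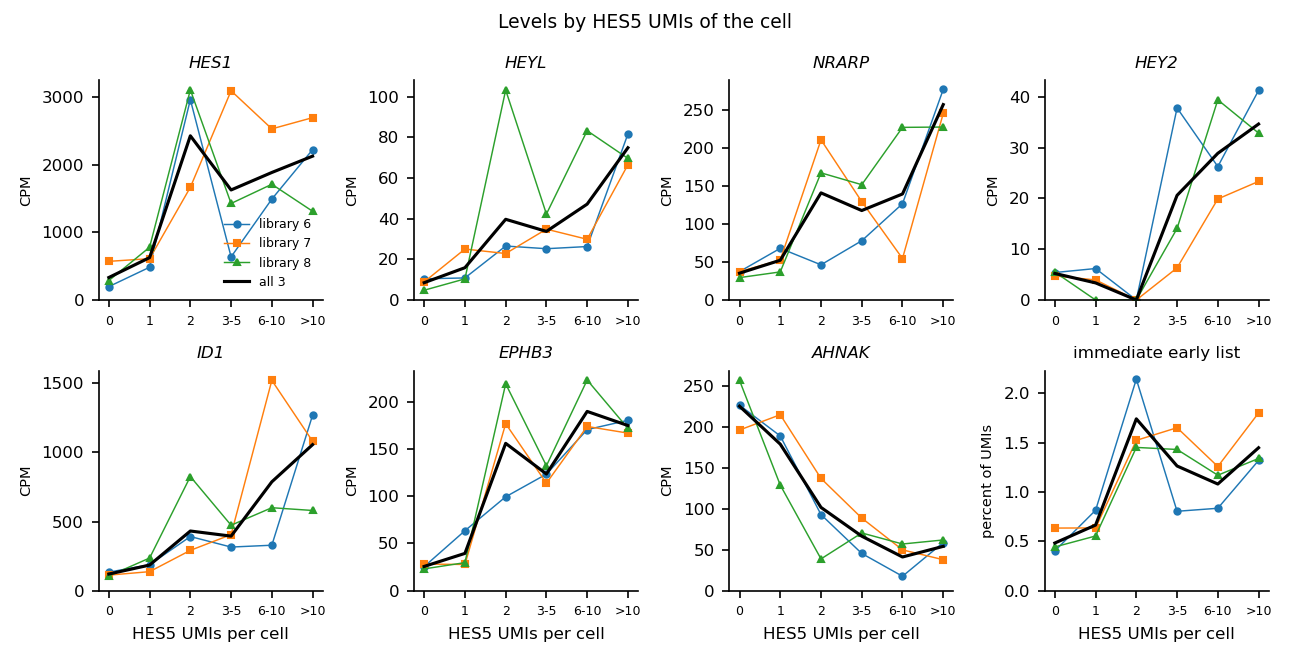
CPM (not TMM-normalized) of 7 genes, and the percent of UMIs on the immediate early list, in cells with 0, 1, 2, 3 to 5, 6 to 10 and more than 10 HES5 UMIs. Colored lines are libraries 6, 7 and 8 and the black line is all 3 together. Over the 3 libraries HES1 goes from 627 at 1 UMI to 2430 at 2 UMIs, and above 2 UMIs the libraries part, with library 6 at 638 and library 7 at 3096 in the bin of 3 to 5. AHNAK goes from 225 in the first bin to 54.1 in the last over the 3 libraries.

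The groups were compared again at equal depth. The 97 HES5-zero cells matched in depth had medians of 46228, 44378.5 and 41083.5 UMIs. Their median immediate early share was 0.178, 0.324 and 0.229%, below the 0.266, 0.332 and 0.285% of all HES5-zero cells. HES5-detected cells had 0.886, 1.56 and 1.16%, so that this comparison left the groups farther apart in this share. In it, 1612 of 9712 genes (16.6%) were higher and 1472 (15.2%) lower. Of these, 1561 and 1438 were also called in the same direction with all cells. HES1 had a log2 ratio of 3.22 (SE 0.29, adjusted p = 1.73e-06) and HEYL of 2.84. Of 14 Notch targets tested 12 were higher and 0 lower, with a median of 1.80. Of 79 ribosomal proteins 70 were lower and of 38 S phase genes 18, and NR4A1, EPHB3, BCL3 and PER1 had ratios between 2.77 and 3.24. Among genes named above and called with all cells, 12 were tested at equal depth and not called. They were BIRC2 (0.28), FURIN (0.50), HJURP (0.84), LFNG (0.70), POLA1 (0.40), POLD3 (0.10) and SNW1 (0.25), and on the lower side BIRC5 (-0.67), CD44 (-0.59), KRT8 (-0.23), NDRG1 (-0.30) and RPS9 (-0.25). CX3CL1, CCNE2, CDCA3 and DTX4, also called with all cells, were not tested at equal depth. CXCL1, not called with all cells, was called higher at equal depth (1.83, adjusted p = 0.00778). The chemokines CCL20 and CXCL3 had 3.53 and 2.04 there.

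The immediate early share was higher in HES5-detected than in HES5-zero cells. Within HES5-detected cells it followed the HES5 level only weakly (Spearman rho 0.12 with HES5 CPM). HES1 and NR4A1 followed it as weakly (0.10 and 0.13), while HEYL, NRARP and ID1 had 0.37, 0.43 and 0.37. EPHB3 and SOX9 had 0.23 and 0.20. Over the 381 HES5-zero cells, HES1 had a rho of 0.54 with the immediate early share. There HEYL had 0.13, and NRARP, ID1, EPHB3 and SOX9 each had 0.26. The comparison was repeated with cells matched in this share, an alternative chosen after the data had been seen. The 97 HES5-zero cells whose share was nearest had medians of 0.833, 1.03 and 0.986%, against 0.886, 1.56 and 1.16% in HES5-detected cells, and they were shallower, with 22785, 29794.5 and 18645.5 UMIs. Of 9631 genes 139 (1.44%) were then higher and 246 (2.55%) lower, against 1612 and 1472 in the comparison of the same number of cells matched in depth. Of the 139 and 246, 132 and 201 had been called in the same direction with all cells.

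Named Notch targets kept part of their difference. Of 13 tested 7 were higher and 0 lower, against 1.44% of all genes. DTX1 had a log2 ratio of 2.65, HEYL 1.78 (SE 0.27, adjusted p = 0.00126), ID1 1.57, NRARP 1.32, HES1 0.72 (SE 0.17, adjusted p = 0.0291), SOX9 0.65 and CCND1 0.64. HEY2 (0.88) and ID3 (0.66) were not called, and MYC (-0.02) and CDKN1A (-0.17) had ratios below 0. JAG2 (0.81) and AXIN2 (0.84) were called higher. EPHB3 had 1.46 and BCL3 1.60. NR4A1 kept 0.89 although it belongs to the list that was matched, of which 2 members were higher and 3 lower. Among the falls, AHNAK (-1.58), AKAP12 (-3.43), EMP1 (-2.48) and PRKCDBP (-1.23) were called, as were 20 of 79 ribosomal proteins, whereas 0 of 37 S phase genes (median 0.14) and 0 of 15 mitochondrially encoded genes were called lower. The 15 mitochondrially encoded genes had ratios between -0.41 and -0.06 (median -0.15). APCDD1, lower with all cells, was called higher (0.64), and CXCL3, higher with all cells, was called lower (-1.08).

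When cells were matched in immediate early share and depth together, 392 of 9658 genes were higher and 342 lower, and HES1 and HEYL had ratios of 1.45 and 2.19. Those HES5-zero cells still had lower medians, of 0.641, 0.942 and 0.788% of UMIs on immediate early genes and of 35717, 35807.5 and 36838.5 UMIs. The part of the immediate early share in the other differences was not tested beyond these matched comparisons.

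**Figure D4:**
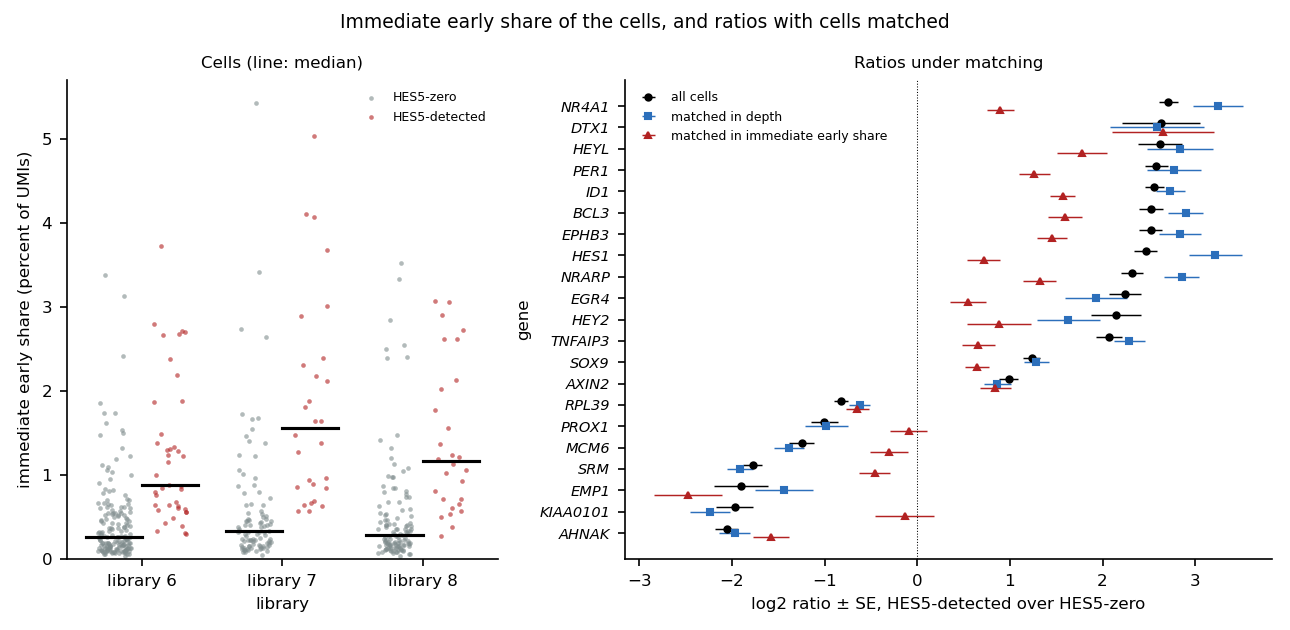
Left, percent of UMIs on immediate early genes in each HES5-zero (gray) and HES5-detected cell (red) by library, with a line at the median. Right, log2 ratio ± SE of 21 genes with all cells (black circles), with cells matched in depth (blue squares) and with cells matched in immediate early share (red triangles). HES1 lies at 2.46, 3.22 and 0.72 in these 3 comparisons and HEYL at 2.62, 2.84 and 1.78.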

How the data were processed

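Single SW480 cells were sorted into 384-well plates, 1 library each, and sequenced by SORT-seq with molecular identifiers. The authors mapped reads with BWA to hg38 (per the labels, no version given) and deposited whole-number UMI counts per gene and well. Wells with over 2000 genes and under 25% of UMIs on mitochondrial genes were kept as cells. The 3 libraries of 1 dpi held 7631299, 5555044 and 4921052 human UMIs and all 5 libraries used the same 384 well barcodes.

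UMIs were summed per library and group, without HES5 and the ERCC spike-in RNAs, and compared in edgeR 4.0.16 (TMM, filterByExpr, quasi-likelihood test, library as block, Benjamini-Hochberg, threshold 0.05) in R 4.3.3. Both groups came from the same plates, which pairs them. DESeq2 1.42.0, thinned or matched cells, other thresholds and left-out libraries were alternatives. The fit was also run on simulated counts in which 200 genes were changed. That is far fewer than the 2441 and 2275 genes called in the data, so a difference as broad was not simulated.

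The members and gene lists were chosen with earlier results of these data known. Named genes were HES1 and HEYL, the tested Notch ligands, receptors and targets, the 10 highest and 10 lowest ratios among called genes of 20 CPM or more with 1 sign in all 3 libraries, genes that the study named for single cells, and of other lists the called members with the 2 highest and 2 lowest ratios, of which some are left out. RBPJ, LGR5, KRT18, CDX2, VIL1 and the genes under other observations were named after their values were seen. A few listed genes are not reported here. Sequences are from RefSeq (GRCh38.p14), where promoters of HEY1, DTX1, SOX9, CCND1 and MYC were not used here.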

Additional observations from a re-analysis of the deposited data

Results flagged for a closer look

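HES5 also appeared in libraries that no comparison above used. Of 291 cells of 4 dpi, 4 had 2 or more HES5 UMIs (1.37%, exact 95% interval 0.376 to 3.48%), and the highest had 5 UMIs. Another 14 had 1 UMI.

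HES5 was found as well in the 1 dpi wells that failed the filters on genes and mitochondrial UMIs. These 621 wells held 26 HES5 UMIs, or 56.6 CPM. In the cells of 1 dpi the level was 127, 101 and 74.9 CPM in libraries 6, 7 and 8, and 3 of the failed wells had 2 or more HES5 UMIs.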

How the results depend on the processing

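The ratios of HES1 and HEYL kept their direction and stayed past the threshold in every alternative that could be fitted, between 2.17 and 2.65 and between 2.29 and 2.86 with 1 library left out; HEYL was not tested with cells thinned to 5000 UMIs. Counts of genes higher and lower were 1389 and 1192 by DESeq2, 744 and 705 with cells thinned to 5000 UMIs, 887 and 781 with cells thinned to 10000 UMIs and grouped anew, 1612 and 1472 with cells matched in depth, 457 and 331 in low-cycling cells (libraries 6 and 7), 392 and 342 with cells matched in immediate early share and depth, and 139 and 246 in immediate early share alone. With 1 library left out they were 1773 to 2087 and 1546 to 2011. Without the replicate block, which pairs the groups of a plate, they were 2272 and 2061. Of 1947 values of 107 named genes over the alternatives, 1599 kept direction and call, 283 lost the call, 11 gained it and 54 changed direction. Matched in immediate early share and depth, and in the share alone, the changed ratios were 0.48 and 0.64 for APCDD1, 0.18 and 0.48 for ASCL2, -0.098 and -0.059 for BIRC2, -0.25 and -1.07 for CXCL1, -0.47 and -1.08 for CXCL3, -0.47 and -0.60 for HES4, -0.089 and -0.45 for IER5, -0.23 and -0.29 for KLF5, 0.034 and 0.031 for KRT8, -0.090 and -0.24 for NOTCH2, -0.044 and -0.070 for RBPJ, 0.24 and 0.071 for SOX4 and 0.31 and 0.052 for TFF3. In the first of these PROX1 also changed (0.16), and in the second CDKN1A (-0.17), JUND (-0.27), MYC (-0.023), NFKBIB (-0.11) and LGR5 (-0.14). In low-cycling cells they were 0.26 for APCDD1, -0.0013 for LFNG, -0.45 for NOTCH2, -0.70 for SNAI1, 0.96 for TFF3 and -0.036 for TGM2. Thinned to 10000 UMIs, HES4 had -1.25 and KLF5 -0.18, and thinned to 5000, JAG2 had -0.17 and RBPJ -0.12. Matched in depth, JAG2 had -0.038 and TFF3 0.089. With cells of 1 HES5 UMI added to the detected group, HES4 and JAG2 had -0.036 and -0.017 and LGR5 -0.084, and with at most 15% mitochondrial UMIs HES4 had -0.055. With 1 library left out, ratios ran from -0.67 to 1.10 for CXCL1, from -0.062 to 0.31 for LGR5, from -0.26 to 0.71 for NOTCH2, from -0.49 to 0.15 for TFF3 and from -0.29 to 0.52 for TGM2. The causes were not tested. Genes under about 10 CPM rest on few UMIs in 3 sums per group.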

Other observations

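Genes of the circadian clock, a list made after their values were seen, were higher in HES5-detected cells. Of 17 tested 14 were called higher and 0 lower, with a median log2 ratio of 1.10. Beside PER1, NR1D1, a repressor of the clock loop, was at 505, 414 and 509 CPM in HES5-detected cells of libraries 6, 7 and 8 and at 88.4, 153 and 119 CPM in HES5-zero cells (2.02, SE 0.14). PER2 was at 86.5, 89 and 119 CPM against 21.6, 32.3 and 28 CPM (1.85), and TEF, BHLHE41 and CRY2 had ratios of 2.04, 1.71 and 1.58. With cells matched in depth 12 of 16 were higher, against 16.6% of all genes tested there. With cells matched in immediate early share 4 of 17 were higher, against 1.44% of all genes.

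Genes of caveolae and membrane scaffolds, likewise listed after the fact and holding AHNAK, AHNAK2 and PRKCDBP named above, had 7 of 12 lower and 2 higher, with a median of -1.14. CAV1, the main coat protein of caveolae, was at 10.1, 17.3 and 10.5 CPM against 44, 39.9 and 32.7 CPM (-1.67), and its partner CAV2 had -1.43. PTRF had -0.85 and was not called without library 6 (-0.71) or library 8 (-0.56), and it had -1.33 without library 7. With cells matched in immediate early share, 6 of 12 were lower, against 2.55% of all genes tested there.

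Of 33 genes of ribosome biogenesis 19 were lower and 3 higher (median -0.33), among them RPP40, a subunit of RNase P, at -1.65. With cells matched in immediate early share 0 of 32 were called by edgeR, where 1.44% of all genes were higher and 2.55% lower. Of 17 cell death genes 9 were higher and 1 (BAX) lower. BBC3, which codes for the killer protein PUMA, had 1.05 and the survival gene MCL1 0.83, while BAX had -1.04 and was not called without library 6 (-1.12) or library 7 (-0.77). These lists too were made after their values were seen.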
